A study of Arabidopsis thaliana with 12 samples.

Results

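The genes described here are 10 Arabidopsis thaliana genes that make salicylic acid and pipecolic acid or control that synthesis. They were taken by locus identifier from a gene expression table of 31837 gene records, in which all 10 were found in 1 record each. The set was chosen with earlier results of these data known. They are the isochorismate branch genes ICS1, EDS5 and PBS3, the transcription factor genes SARD1 and CBP60G, the pipecolic acid genes ALD1, SARD4 and FMO1, and the signalling genes EDS1 and PAD4. RNA was sequenced from whole Col-0 seedlings, 14 days old and grown in long days, in 12 libraries. The genotypes were brm-1, brd1,2,13, brm-1 brd1,2,13 (the quadruple mutant) and WT, with 3 libraries each. The ATPase encoded by BRM drives a SWI/SNF chromatin remodeller, of which the bromodomain proteins BRD1, BRD2 and BRD13 are subunits. The comparisons ask how expression depends on BRM, on the BRD proteins, and on the BRD proteins once BRM is mutated. Whether the libraries of a genotype came from separate plantings is not stated in the labels.

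Salicylic acid is the hormone that plants raise against biotrophic pathogens. In Arabidopsis, ICS1 makes isochorismate in the plastid, EDS5 moves it to the cytosol, and PBS3 joins it to glutamate in a product that breaks down to salicylic acid. A parallel route starts from lysine. The aminotransferase ALD1 and the reductase SARD4 form pipecolic acid, and the monooxygenase FMO1 hydroxylates it to N-hydroxypipecolic acid, a mobile signal of systemic acquired resistance. SARD1 and CBP60G are related transcription factors that bind promoters of both routes, and the lipase-like proteins EDS1 and PAD4 form a complex that acts upstream of them.

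The sequences before these genes are shown because all 10 genes had higher values in the brm-1 genotypes, as described below. Whether the sequences have a part in that was not tested. The windows are the 250 bases before the RefSeq gene start in the TAIR10.1 assembly, read 5′ to 3′ on the strand of the gene. They lie at chr1:28070045-28070294 (plus strand) for ICS1, chr5:4267206-4267455 (plus) for PBS3, chr1:27749249-27749498 (minus) for SARD1 and chr1:6653196-6653445 (minus) for FMO1. They were chosen to show the entry to the isochorismate branch (ICS1), the gene with the largest fold (PBS3), the transcription factor gene with the larger fold (SARD1) and the last step of the pipecolic acid route (FMO1). Capitals mark TTGAC, the core of the W-box bound by WRKY factors, and GAAATTT, the element bound by CBP60G and SARD1, on either strand.
ICS1: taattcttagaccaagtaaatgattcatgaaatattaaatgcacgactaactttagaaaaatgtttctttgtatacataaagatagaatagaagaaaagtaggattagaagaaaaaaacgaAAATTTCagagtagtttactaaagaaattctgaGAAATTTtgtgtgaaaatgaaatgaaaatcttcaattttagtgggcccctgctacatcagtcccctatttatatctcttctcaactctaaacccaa
PBS3: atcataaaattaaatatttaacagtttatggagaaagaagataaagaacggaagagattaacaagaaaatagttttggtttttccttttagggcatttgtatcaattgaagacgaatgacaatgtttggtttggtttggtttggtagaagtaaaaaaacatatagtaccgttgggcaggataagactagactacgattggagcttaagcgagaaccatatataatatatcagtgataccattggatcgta
SARD1: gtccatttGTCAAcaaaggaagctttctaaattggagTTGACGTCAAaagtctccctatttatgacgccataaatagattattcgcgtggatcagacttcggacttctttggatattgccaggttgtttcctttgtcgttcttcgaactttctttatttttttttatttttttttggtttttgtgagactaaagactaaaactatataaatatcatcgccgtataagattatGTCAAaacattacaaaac
FMO1: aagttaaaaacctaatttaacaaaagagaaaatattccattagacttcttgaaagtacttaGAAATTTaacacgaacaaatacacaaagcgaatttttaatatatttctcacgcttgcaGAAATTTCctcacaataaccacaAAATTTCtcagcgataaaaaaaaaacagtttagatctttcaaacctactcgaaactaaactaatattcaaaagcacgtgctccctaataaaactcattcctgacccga

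Over all 10 windows of 250 bases, TTGAC (or GTCAA) occurred in 4, those of EDS5, SARD1, SARD4 and EDS1. It occurred in 44.9% of 27443 windows of protein-coding genes. SARD1 held 4 such matches. GAAATTT (or AAATTTC) occurred in 3 windows, with 2 separate matches in ICS1, 1 in ALD1 and 3 in FMO1, against 12.5% of all windows. TGACG (or CGTCA), the core bound by TGA factors, can overlap TTGAC by 4 bases and was present only in the SARD1 window among the 10, against 18.6% of all. CGCG, the core bound by CAMTA factors, was likewise present only in SARD1 among the 10, against 10.1% of all. The PBS3 window, which precedes the gene with the largest fold in the set, held none of these letters. The share of all windows with several matches was not computed, so the match counts within SARD1, ICS1 and FMO1 stand without a background. A match is a description of the sequence only. The SARD4 window overlaps the annotated neighbour AT5G52800.

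Each level below is FPKM, the fragments assigned to a gene scaled for transcript length and for the size of the library, and the table gives 1 such value per genotype. Values for single libraries were not used, which leaves every difference below without a replicate check, an error or a test. The depth of the libraries is unknown. A ratio is the FPKM of one genotype over that of another with nothing added, and a gene counts as apart at 2-fold or more with at least 1 FPKM in the higher genotype. "Higher" and "lower" describe these single values.

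In brm-1 all 10 genes were higher than in WT, and 9 of the 10 were at least 2-fold higher. Because the set was chosen with earlier results of these data known, shares over all records are a background and not a test of it. Over all 17947 records with enough signal, 6.66% were at least 2-fold higher in brm-1 and 5.63% at least 2-fold lower. None of the 10 was lower, while 49.7% of the records were above WT. The median log2 ratio of the 10 genes was 1.53, against 0.00 over all records, and the single ratios ran between 0.76 for EDS1 and 3.77 for PBS3. The summed level of the 10 genes was 188 FPKM in brm-1, 79.7 in brd1,2,13, 159 in the quadruple mutant and 59.9 in WT.

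**Figure D1:**
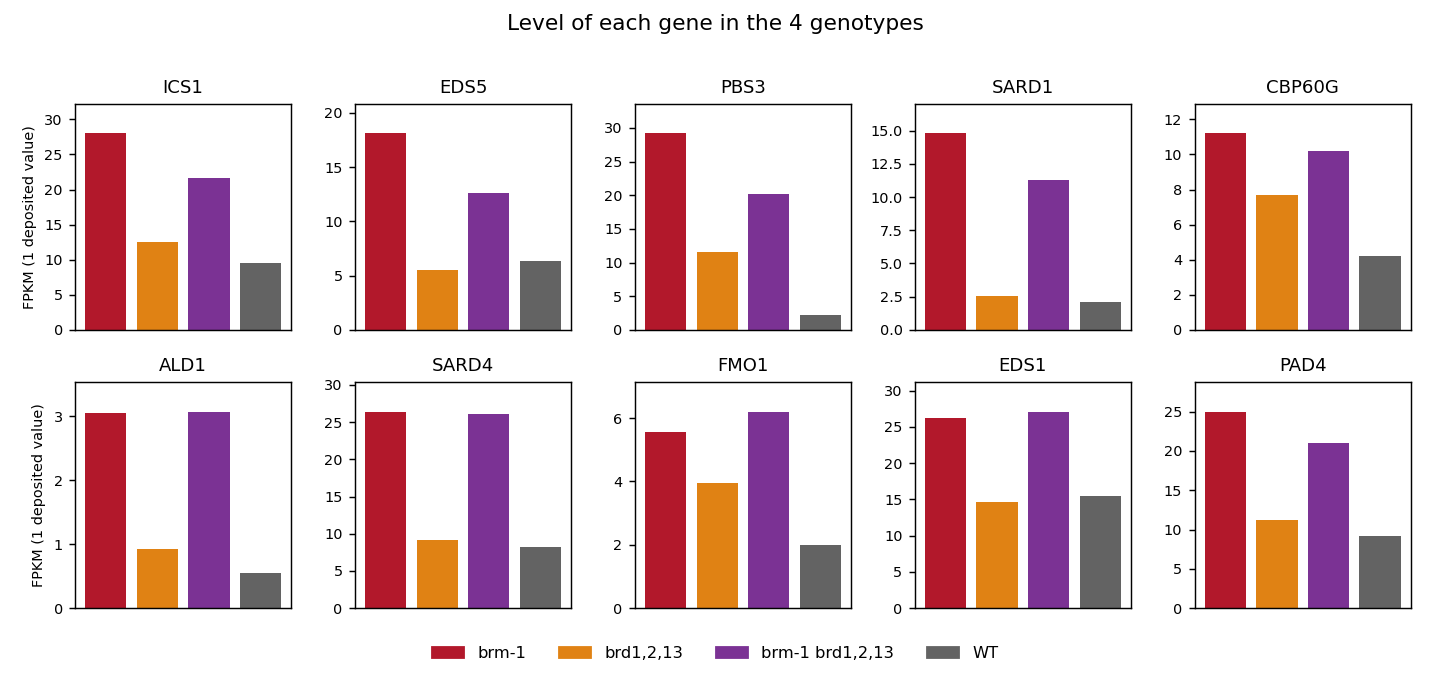
Level of each of the 10 genes in FPKM, 1 deposited value per bar, for brm-1, brd1,2,13, brm-1 brd1,2,13 and WT. In every panel the bars of brm-1 and brm-1 brd1,2,13 stand above those of brd1,2,13 and WT, and the vertical scale differs between panels.

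The isochorismate branch was examined first. ICS1 (AT1G74710, TAIR10 chromosome 1, 28070295 to 28074148), the first enzyme of the branch, had 28.0 FPKM in brm-1, 12.5 in brd1,2,13 and 21.7 in the quadruple mutant, against 9.59 in WT. It was thus 2.92-fold higher than WT in brm-1 and 2.27-fold higher in the quadruple mutant, but 1.31-fold in brd1,2,13. EDS5 (AT4G39030, chromosome 4, 18185509 to 18190608), the transporter, had 18.1 FPKM in brm-1, 5.55 in brd1,2,13 and 12.6 in the quadruple mutant, against 6.32 in WT. Its ratio to WT was 2.86 in brm-1 and 0.877 in brd1,2,13, so that brd1,2,13 held the lowest level. In the quadruple mutant the ratio of EDS5 was 1.99, just inside the 2-fold limit.

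PBS3 (AT5G13320, chromosome 5, 4267510 to 4271051), which encodes the isochorismate-glutamate synthase, stood apart from the other 9 genes. It had 29.2 FPKM in brm-1, 11.6 in brd1,2,13 and 20.2 in the quadruple mutant, against 2.14 in WT. The folds over WT were 13.7, 5.45 and 9.47 in that order of genotypes. PBS3 was the only one of the 10 genes at least 2-fold higher in brd1,2,13. In brm-1 the level of PBS3 lay at percentile 75.8 of the records above 0, against percentile 27.0 in WT.

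The transcription factor genes differed from each other in brd1,2,13. SARD1 (AT1G73805, chromosome 1, 27741941 to 27749255) had 14.8 FPKM in brm-1, 2.51 in brd1,2,13 and 11.3 in the quadruple mutant, against 2.13 in WT. Its ratio was 6.92 in brm-1 but 1.18 in brd1,2,13. CBP60G (AT5G26920, chromosome 5, 9475682 to 9478786) had 11.2 FPKM in brm-1, 7.70 in brd1,2,13 and 10.2 in the quadruple mutant, against 4.20 in WT. In WT, CBP60G was the more abundant transcript of the pair, and in brm-1 it was SARD1. The SARD1 record shares its coordinates with another record of higher level, so this order may depend on how reads were assigned. The excess of CBP60G over WT in brd1,2,13, in FPKM, was 50.0% of that in brm-1, whereas for SARD1 it was 2.99%.

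Of the pipecolic acid genes, ALD1 (AT2G13810, chromosome 2, 5768446 to 5772294), the aminotransferase gene of the first step, had the lowest level of the set in every genotype. It had 3.05 FPKM in brm-1, 0.927 in brd1,2,13 and 3.07 in the quadruple mutant, against 0.555 in WT. The folds over WT were 5.50 in brm-1 and 5.53 in the quadruple mutant, and they depend on how low values are treated, since with 1 FPKM added to each value the log2 ratio in brm-1 was 1.38 and not 2.46. Both values in brd1,2,13 and WT were under 1 FPKM, so ALD1 was not counted in that comparison. FMO1 (AT1G19250, chromosome 1, 6650529 to 6653078), which encodes the last enzyme, had 5.57 FPKM in brm-1, 3.96 in brd1,2,13 and 6.20 in the quadruple mutant, against 1.99 in WT. The ratio of FMO1 in brd1,2,13 was 1.99, just short of 2-fold, and its excess there was 55.0% of that in brm-1, the largest such share of the 10 genes.

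SARD4 (AT5G52810), the reductase gene, was held in a record that joins it with the neighbouring AT5G52800 (chromosome 5, 21395927 to 21400744), so the value is that of both genes. The record had 26.4 FPKM in brm-1, 9.19 in brd1,2,13 and 26.1 in the quadruple mutant, against 8.25 in WT. A separate record of AT5G52800 alone, over the same coordinates, had 1.71, 0.870 and 1.28 FPKM in these mutants and 0.354 in WT. How much of the joint value belongs to SARD4 cannot be told from the table.

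EDS1 and PAD4 encode the signalling partners. EDS1 (AT3G48090, chromosome 3, 17755374 to 17757780) had 26.3 FPKM in brm-1, 14.6 in brd1,2,13 and 27.1 in the quadruple mutant, against 15.5 in WT. It had the highest WT level of the 10 genes and the smallest ratio in brm-1, 1.69. PAD4 (AT3G52430, chromosome 3, 19431371 to 19434403) had 25.0 FPKM in brm-1, 11.2 in brd1,2,13 and 21.0 in the quadruple mutant, against 9.16 in WT, which is 2.73-fold, 1.22-fold and 2.29-fold. EDS1 has a close copy next to it, EDS1B (AT3G48080), 127 bases away, and reads of such copies can be shared out wrongly. EDS1B itself had 3.64 FPKM in brm-1, 3.0 in brd1,2,13 and 6.53 in the quadruple mutant, against 2.29 in WT.

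**Figure D2:**
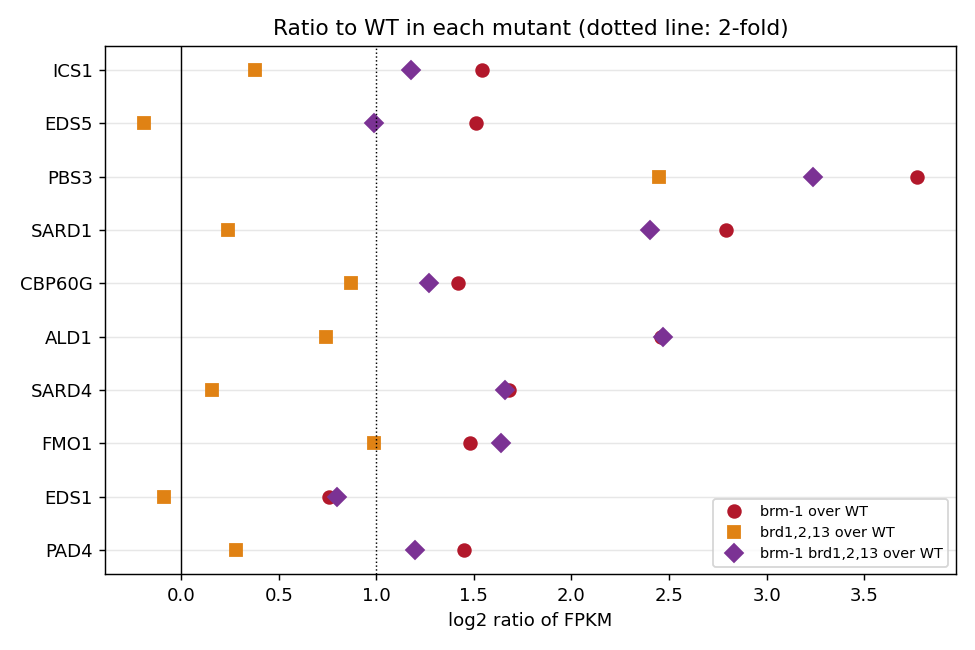
Log2 ratio of FPKM over WT for each of the 10 genes (rows) in brm-1 (circles), brd1,2,13 (squares) and brm-1 brd1,2,13 (diamonds), with the 2-fold limit dotted. Circles and diamonds lie at 0.76 or more, whereas the squares lie between -0.19 and 0.99 except for PBS3 at 2.45.

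In brd1,2,13 the levels relative to WT varied among the genes, with PBS3 highest and FMO1, CBP60G and ALD1 between 1.67-fold and 1.99-fold of WT. Of the 9 genes with enough signal 1 was at least 2-fold higher, against 3.22% of 17849 records, and none was at least 2-fold lower, against 1.29%. The median log2 ratio of all 10 genes, ALD1 included, was 0.33, against 0.01 over all records, and it was 0.74 without the joined or overlapping records of EDS5, SARD1 and SARD4. Values were above WT for 8 genes and below it for EDS5 (-0.19) and EDS1 (-0.09), while 51.3% of all records were above WT. FMO1 (0.99), CBP60G (0.87) and ALD1 (0.74) followed PBS3, and ICS1 (0.38), PAD4 (0.28), SARD1 (0.24) and SARD4 (0.16) lay lower.

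In the quadruple mutant 8 of the 10 genes were at least 2-fold higher than in WT, with EDS5 and EDS1 under that limit. The share over all 17970 records was 7.89%, and 6.66% were at least 2-fold lower, a group with none of the 10 genes. The median log2 ratio of the set was 1.46, against 0.01 over all records. These 3 comparisons with WT share the WT value, so a WT value off its true level would move all of them.

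The BRD mutations were next read where BRM was already mutated. Between the quadruple mutant and brm-1 none of the 10 genes was 2-fold apart. Over 17724 records 0.807% were at least 2-fold higher and 0.536% at least 2-fold lower, so few records of any kind were apart in this comparison. The log2 ratios ran between -0.53 for PBS3 and 0.15 for FMO1, with a median of -0.20 against 0.00 over all records. The quadruple mutant was below brm-1 for 7 genes, among them EDS5 (-0.52), SARD1 (-0.39), ICS1 (-0.36) and PAD4 (-0.25), and above it for ALD1 (0.01), EDS1 (0.04) and FMO1 (0.15). Over all records, 51.2% were above brm-1. The isochorismate branch genes had 0.777 (ICS1), 0.696 (EDS5, in an overlapping record) and 0.692 (PBS3) of their brm-1 level. The pipecolic acid genes had between 0.987 (SARD4, in a joint record) and 1.11 (FMO1). Outside both routes, SARD1 (0.764), PAD4 (0.840) and CBP60G (0.907) were also lower, and EDS1 (1.03) was not.

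The BRM mutation was read in the same way where the BRD genes were mutated. Between the quadruple mutant and brd1,2,13 all 10 genes were higher, and 4 were at least 2-fold higher, SARD1 (log2 ratio 2.17), ALD1 (1.73), SARD4 (1.5) and EDS5 (1.18). Over 17975 records 49.6% were higher, 5.46% were at least 2-fold higher and 5.55% at least 2-fold lower. The median of the 10 genes was 0.90, against 0.00. The smallest ratios were those of CBP60G (0.40) and FMO1 (0.65), followed by PBS3 and ICS1 (0.80 each). SARD1, SARD4 and EDS5 lie in records that overlap others, and without such records the count was 1.

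The 4 genotypes allow each gene to be set against the sum of the single mutant effects on the log2 scale. The quadruple mutant was below that sum for 9 of the 10 genes and above it for EDS1 (0.13). Over all records, 49.4% lay above it. The sum also rests on the single WT value. It was at least 2-fold below the sum for PBS3 (-2.98) and CBP60G (-1.02), CBP60G at the limit and not past it with 0.1 FPKM added to each value, against 4.0% of 18168 records. The other 7 genes lay between -0.84 (FMO1) and -0.17 (SARD4). In both genotypes with brm-1 every one of the 10 genes had a higher level than in both genotypes with intact BRM, a pattern that 33.0% of records showed. Within each of these pairs of genotypes the order varied, with 7 genes highest in brm-1 and 3, ALD1, FMO1 and EDS1, highest in the quadruple mutant. With no spread between libraries, it cannot be said which of these small steps exceed replicate error.

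**Figure D3:**
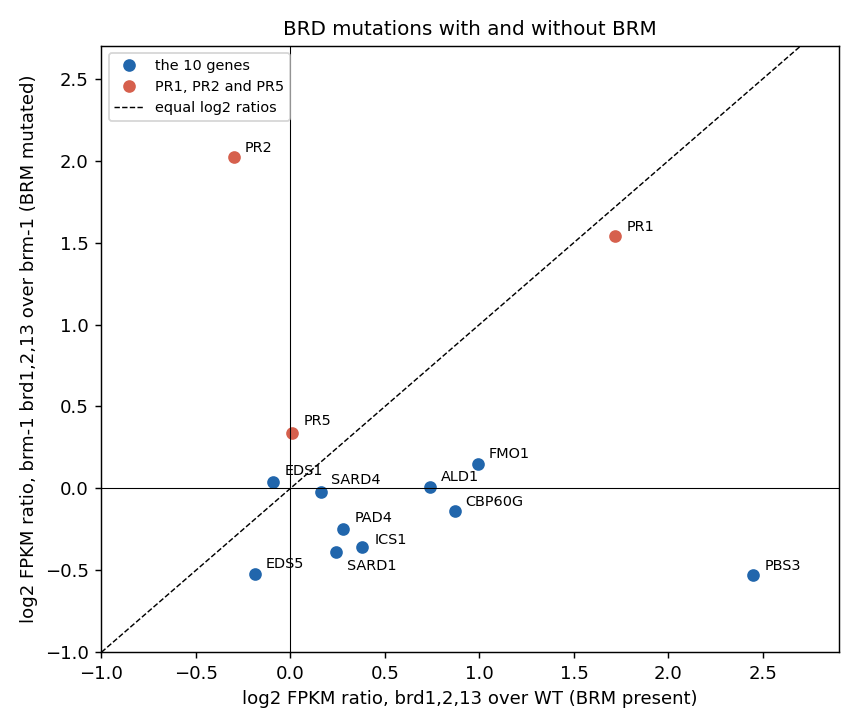
Log2 FPKM ratio of brm-1 brd1,2,13 over brm-1 (vertical) against that of brd1,2,13 over WT (horizontal), 1 point per gene, for the 10 genes and the output genes PR1, PR2 and PR5, with equal ratios dashed. The 10 genes lie between -0.53 and 0.15 on the vertical axis, while PR5 is at 0.34, and PR1 (1.54) and PR2 (2.02) lie higher.

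Other genes of the pathway were read from lists of related genes. Over all records, 6.66% were at least 2-fold higher than WT in brm-1, 3.22% in brd1,2,13 and 7.89% in the quadruple mutant. At least 2-fold lower were 5.63%, 1.29% and 6.66%. With such shares, low counts in lists this short say little. Of 6 other salicylic acid synthesis genes none was at least 2-fold higher in any mutant. ICS2, the paralog of ICS1, had 1.39 FPKM in brm-1, 3.96 in brd1,2,13 and 1.32 in the quadruple mutant, against 3.76 in WT, and was the only one 2-fold lower in brm-1. PAL1, a phenylalanine ammonia-lyase gene of the other route to salicylic acid, had 80.3, 141 and 67.3 FPKM in these mutants, against 141 in WT, and was 2-fold lower in the quadruple mutant. ICS1 and ICS2 thus differed in direction in brm-1, but the ICS2 record overlaps another. EPS1 and PAL4 of this list lie in joint records.

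Of 7 genes that convert salicylic acid or N-hydroxypipecolic acid, 2 were at least 2-fold higher in brm-1 and 3 in the quadruple mutant, with none in brd1,2,13. The glucosyltransferase gene UGT76B1 had 29.3 FPKM in brm-1, 5.87 in brd1,2,13 and 24.3 in the quadruple mutant, against 7.65 in WT. UGT74F2 had 79.6, 41.8 and 74.6 FPKM in these mutants, against 32.9 in WT. S3H, a salicylic acid hydroxylase gene, had 3.26, 2.26 and 8.39 FPKM, against 1.93 in WT, and so was 4.35-fold higher in the quadruple mutant alone. UGT74F1, with 0.660 FPKM in the quadruple mutant and 1.53 in WT, was lower there, and its record overlaps another. BSMT1 was listed at 0 in brm-1 and WT and did not exceed 0.141 FPKM.

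Receptors and signalling partners varied. NIMIN1 and NIMIN2, which encode proteins that bind the receptor NPR1, were the members of their list of 5 that were 2-fold higher, in brm-1 and the quadruple mutant, with none in brd1,2,13. NIMIN1 had 11.5 FPKM in brm-1, 2.71 in brd1,2,13 and 7.42 in the quadruple mutant, against 1.69 in WT. NIMIN2, in a record that it shares with AT3G25880, had 41.0, 8.49 and 44.0 FPKM, against 8.16 in WT. The receptor genes NPR1, NPR3 and NPR4 had log2 ratios of 0.43, 0.90 and 0.11 in brm-1. Of 6 EDS1 partners and helper NLR genes, SAG101, which encodes another EDS1 partner, was 2-fold higher in brm-1 (15.3 FPKM against 6.09 in WT) and in the quadruple mutant (19.3 FPKM), and no gene of the list was 2-fold apart in brd1,2,13. NRG1.2 had 9.14 FPKM in the quadruple mutant and 4.23 in WT, and the list had a median of 0.75 in brm-1.

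Other CBP60 genes, upstream regulators and the closest paralogs were read next. None of 5 other CBP60 genes with 1 record was 2-fold apart in any mutant, and their log2 ratios in brm-1 had a median of 0.15. CBP60D was split over 2 records and is given no value, and CBP60A, CBP60E and CBP60F share their records with other genes. Among 8 upstream transcription regulators 1 was 2-fold higher, CAMTA3, which encodes a calmodulin-binding repressor of SARD1 and CBP60G, with 25.8 FPKM in the quadruple mutant and 11.7 in WT, and the median in brm-1 was 0.14. The CAMTA3 record overlaps another. CAMTA1, TGA1, TGA4 and NTL9 of that list lie in joint records, whose ratios are not those of the named gene alone. EDS5H (0.02), AGD2 (0.28) and CBP60A (0.23), the paralogs of EDS5, ALD1 and CBP60G, were close to WT in brm-1. AGD2 and CBP60A lie in joint records. The other paralogs were EDS1B, 2.85-fold higher in the quadruple mutant, and ICS2, with log2 ratios of -1.44 in brm-1 and -1.51 in the quadruple mutant. The records of EDS5H, EDS1B and ICS2 overlap others. The output genes were PR1, with 293 FPKM in brm-1, 177 in brd1,2,13 and 854 in the quadruple mutant, against 53.8 in WT, PR2, with 30.9, 19.4 and 126 against 23.9, and PR5, whose joint record stayed within 2-fold of WT.

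**Figure D4:**
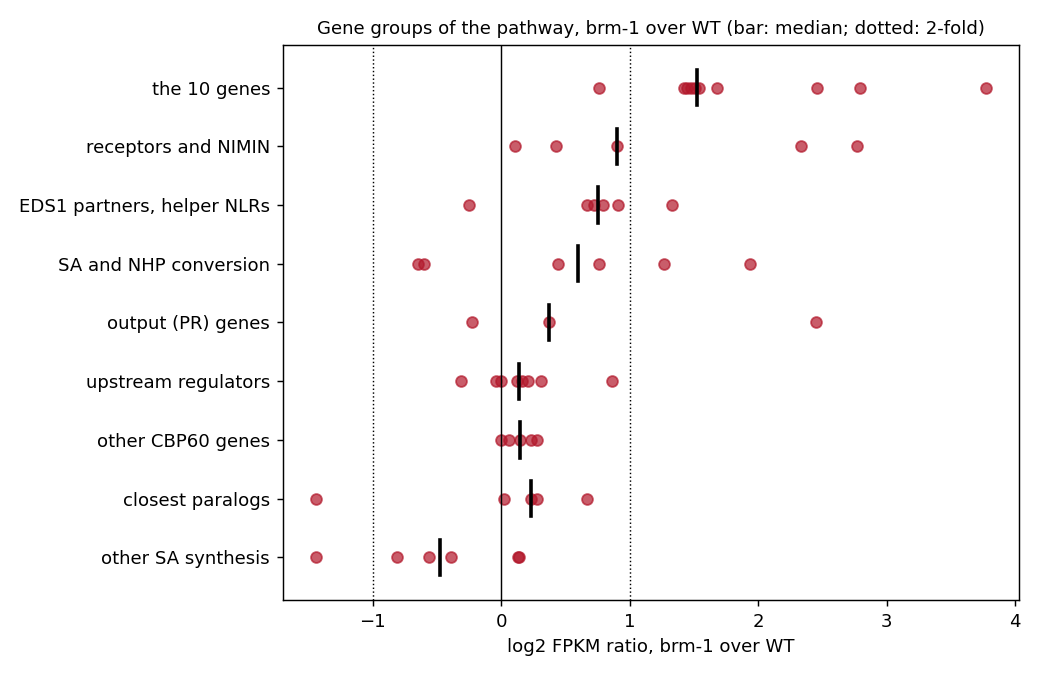
Log2 FPKM ratio of brm-1 over WT for the 10 genes and 8 lists of related genes, 1 point per gene with at least 1 FPKM in one of both genotypes, a bar for the median and the 2-fold limits dotted. The median is 1.53 for the 10 genes, 0.90 for receptor and NIMIN genes, and -0.47 for the other synthesis genes.

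The genomic surroundings were compared as well. The nearest record of a single gene on each side of the 10 genes gave 20 neighbours, of which 13 had enough signal in brm-1 or WT. Their median log2 ratio in brm-1 was 0.15, and 1 was at least 2-fold higher, against 6.66% of all records. That was AT1G73810, 3144 bases from the SARD1 record, with 3.29 FPKM in brm-1, 2.37 in brd1,2,13 and 3.03 in the quadruple mutant, against 0.768 in WT. AT1G19240, 100 bases from FMO1, had 20.0, 16.3 and 19.2 FPKM in these mutants, against 18.6 in WT, and Rap2.6L, 518 bases from PBS3, had 6.78, 5.19 and 6.12 FPKM, against 5.66 in WT. Records that overlap the members bear on their values. The EDS5 record has the coordinates of that of AT4G39040, which had 90.4, 83.1 and 89.5 FPKM, against 88.4 in WT. The SARD1 record has those of a record of AT1G73770, AT1G73780 and AT1G73790, which had 23.0, 23.3 and 21.9 FPKM, against 26.5 in WT. Neither of these overlapping records was 2-fold apart from WT in any mutant. The record of AT5G52800, over that of SARD4, differed, with 1.71, 0.870 and 1.28 FPKM, against 0.354 in WT. It was thus at least 2-fold higher in brm-1 and in the quadruple mutant. Whether the counting used strand is not stated, so reads of overlapping genes may not be told apart.

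Some records had ratios to WT very like the median of the 10 genes (1.53, 0.33 and 1.46 in brm-1, brd1,2,13 and the quadruple mutant). The 5 nearest single-gene records with at least 1 FPKM in every genotype, by the root mean square distance of the 3 log2 ratios, were B120 (0.035), EXL2 (0.045), ST2A (0.050), AOC3 (0.061) and GAD4 (0.064). AOC3, an allene oxide cyclase gene, had 20.1 FPKM in brm-1, 9.35 in brd1,2,13 and 20.7 in the quadruple mutant, against 7.14 in WT. The likeness rests on 3 ratios that share 1 WT value, and the ST2A record overlaps another.

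The mutated genes had the transcript pattern of their labels. BRM was at 0.0954 FPKM in brm-1 and 0.120 in the quadruple mutant, against 17.5 in WT, and BRD13 was at 0.223 in brd1,2,13 and 0.0194 in the quadruple mutant, against 14.4 in WT. BRD1 and BRD2 were reduced and not absent in brd1,2,13, at 4.36 and 3.05 FPKM, against 12.7 and 7.04 in WT. BRD2 was itself 3.20-fold higher in brm-1, with 22.5 FPKM. Leaf mesophyll and root markers of the seedlings were detected in every genotype, while the flower markers AP1 and AG stayed under 1 FPKM. The 4 mesophyll markers summed to 28832 FPKM in brm-1, 30473 in brd1,2,13 and 27578 in the quadruple mutant, against 33220 in WT, the 4 root markers to 28.1, 22.4 and 23.0 against 37.5, and the phloem marker SUC2 to 95.1, 96.4 and 72.7 against 89.5. The 3 guard cell markers summed to 24.7, 44.2 and 25.5 FPKM in these mutants, against 57.9 in WT. Of 4 senescence markers, SAG12 was listed at 0 in every genotype, ORE1 was lower in brm-1 (21.5 FPKM against 43.7 in WT), and SEN1 (219 against 39.1) and SAG13 (33.1 against 15.3) were higher. The list summed to 274 FPKM in brm-1, 114 in brd1,2,13 and 318 in the quadruple mutant, against 98.1 in WT. SEN1 made up most of that sum in brm-1 and in the quadruple mutant (245 FPKM), where ORE1 (24.4 FPKM) was again below WT. SAG13 was also higher in brd1,2,13 (33.0 FPKM). The guard cell sum was lowest, and the senescence sum highest, in both genotypes with brm-1, where the 10 genes were highest, and their part in the result was not tested. In whole seedlings, more cells of a type and more RNA per cell cannot be told apart.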

How the data were processed

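Gene expression in whole seedlings of 4 genotypes, each with 3 libraries by the labels, was read from 1 table. The authors deposited FPKM values, computed with Cuffdiff 2.1.1 as 1 value per gene record and genotype, after Cufflinks 2.1.1 and TopHat (version not given) on TAIR10, per the submitters' processing notes. Library scaling and the strand setting are not given in the sources used here. The table's fold changes, test statistics, p and q values hold the authors' own comparisons and were not used. FPKM keeps no read counts, so depth and counting error are unknown.

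Log2 ratios were computed with Python 3.11.15 and pandas 2.3.3 without a pseudocount, over records with at least 1 FPKM in the higher genotype and a value above 0 in both. The computation was tested on simulated data. FPKM totals per genotype lay between 934002 and 953230. A record joins several genes in 1944 of 31837 cases and overlaps another in 7465. Printed gene coordinates were taken from the table, with starts counted from 1. Symbols and promoter windows came from the RefSeq annotation of TAIR10.1, and file coordinates were not used to read sequence. Named genes were the 10 genes, those of 8 related lists at least 2-fold apart, the nearest neighbours and the 5 nearest profiles. Genes named beyond this rule were chosen after their values were seen. Members and lists were chosen with earlier results of these data known. Pseudocounts, filters, scalings, fold limits and the exclusion of overlapping records were tried as alternatives.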

Additional observations from a re-analysis of the deposited data

Results flagged for a closer look

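For 2 of the 10 genes the ratio for the BRD mutations was at least 2-fold lower with BRM mutated than with BRM intact. Both also differed in sign, but so did ICS1 (0.38 with BRM intact, -0.36 with BRM mutated), SARD1 (0.24, -0.39), PAD4 (0.28, -0.25), SARD4 (0.16, -0.02) and EDS1 (-0.09, 0.04). The share of records with both a sign change and a 2-fold gap was not computed. PBS3 had a log2 ratio of -0.53 in brm-1 brd1,2,13 over brm-1, and of 2.45 in brd1,2,13 over WT. CBP60G had -0.14 and 0.87 in the same comparisons. Over all 18168 records, 4.0% had a ratio of brm-1 brd1,2,13 over brm-1 at least 2-fold below that of brd1,2,13 over WT, whatever the directions. With 0.1 or 1 FPKM added to each value, 1 gene, PBS3, was past that limit and CBP60G was not. With 1 value per genotype, the difference was not tested for either gene.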

How the results depend on the processing

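No paired analysis was possible because the table holds 1 value per genotype, and for the same reason no replicate could be left out. Other filters on low values changed no count by over 1.5 times. Both scalings between genotypes left every count and median within its limits and shifted no ratio of a single gene by more than 0.02 on the log2 scale. A log2 value counted as moved when it shifted by over 0.25. With 1 FPKM added, 13 of 50 single-gene ratios moved, all downward in size and by at most 1.08, and the median in brm-1 brd1,2,13 over WT was 1.19. With 1 FPKM or 0.1 FPKM added, 1 gene was at least 2-fold below the sum of the single effects, and not 2. At a limit of 1.5-fold, 3 genes were higher in brd1,2,13 than in WT, 9 were apart between brm-1 brd1,2,13 and brd1,2,13, and 6 were below the sum. At 3-fold, 4 were higher in brm-1 than in WT, 5 in brm-1 brd1,2,13 than in WT, 2 were apart between brm-1 brd1,2,13 and brd1,2,13, and 1 was below the sum. Shares over all records were computed at 2-fold only, so the counts at 1.5-fold and 3-fold stand without a background. Without joined or overlapping records, which leaves out EDS5, SARD1 and SARD4, 1 gene was apart between brm-1 brd1,2,13 and brd1,2,13, and the median in brd1,2,13 over WT was 0.74.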

Other observations

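When the quadruple mutant was set against brm-1, the 10 genes had log2 ratios of at most 0.15. The output genes varied, with 2.02 for PR2, 1.54 for PR1 and 0.34 for the joint record of PR5. S3H, chosen after its values were seen, had 1.36. EDS1B, the copy beside EDS1, had 0.84 and EDS1 had 0.04. NIMIN1 had -0.63 and the joint record of NIMIN2 had 0.10. Each is a ratio of single values without a measure of spread, and the differences between the groups were not tested.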
